A study of Mus musculus with 16 samples.

Results

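The genes described here encode the nuclear subunits of the mitochondrial respiratory chain and of ATP synthase, measured by RNA sequencing in sorted mouse regulatory T cells (Tregs). They were chosen by name, with earlier results of these data known. All genes of the table starting with Ndufa, Ndufb, Ndufc, Ndufs or Ndufv and a digit, Uqcr, Atp5 or Cox4 to Cox8 were taken. Sdha to Sdhd, Cyc1 and Cycs were added, and pseudogenes were left out. This gave 86 of the 19195 genes: 7 core and 30 supernumerary subunits of complex I, 4 of complex II, 10 of complex III and cytochrome c, 18 of complex IV and 17 of ATP synthase.

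Complexes I to IV pass electrons from NADH and succinate to oxygen. Complexes I, III and IV pump protons across the inner mitochondrial membrane, and ATP synthase uses the returning protons to make ATP. Complex I is built from a catalytic core, inherited from bacteria, and many supernumerary subunits around it, and several subunits of complex IV exist as a common form and a form typical of heart, skeletal muscle or other tissues. Tregs are known to rely on oxidative phosphorylation more than conventional effector T cells do.

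The mice were 8 weeks old and carried a Foxp3-GFP reporter, and Tregs were taken 7 days after a myocardial infarction (MI). One source was the injured heart, and the other was the draining mediastinal lymph node (MLN). They were sorted for the chemokine receptor CCR8 into CCR8- and CCR8+ Tregs of each source, with 4 libraries in each of the 4 groups and about 100 cells per library. All groups share the reporter genotype and the infarction, and no uninjured group was used here. No label says which mouse gave which library, so p-values measure the spread between these libraries, which may be technical.

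Levels are log2(FPKM + 1), as the deposited values were read, and differences are on the same log2 scale. FPKM is a read count corrected for transcript length and library size. Depth is unknown, which leaves the values without a counting error. The limma test was run on the 10369 genes that reached an FPKM of 1 in 4 libraries or more, two-sided, and a call means a p under 0.05 after Benjamini-Hochberg adjustment over all of them. Of the 86 genes, 84 were tested, and Cox4i2 and Cox8b were not.

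Markers of the sorted cells were present in each library: the mean level of 6 Treg markers was 6.54 to 8.12 and that of 10 T cell markers 7.65 to 8.82. Ccr8 mRNA ranged from 3.85 to 5.41 in MLN CCR8- and from 7.39 to 8.18 in MLN CCR8+ libraries, and from 8.20 to 8.73 in heart CCR8- and from 9.75 to 10.32 in heart CCR8+ libraries. The heart CCR8- libraries thus held more Ccr8 mRNA than any MLN CCR8+ library, although they were sorted as negative for the surface protein. RNA of other cells differed between the groups. The mean of 8 fibroblast markers was 0.72 to 4.16 in heart and 0.01 to 0.55 in MLN, and that of 10 macrophage and monocyte markers 0.41 to 6.13 in heart and 0.29 to 1.54 in MLN. Heart CCR8- replicate 3 stood apart by an endothelial marker mean of 6.68, against 0.84 to 2.23 in the other heart libraries. B cell and dendritic cell markers instead had their highest group mean in MLN CCR8+. The mean of 5 B cell markers was 2.23 to 4.71 there, 0.46 to 3.35 in MLN CCR8- and 0.00 to 1.65 in heart, and that of 7 dendritic cell markers, 4 of which serve MHC class II presentation in B cells too, was 3.26 to 4.83, 0.92 to 4.48 and 1.73 to 5.65. Clec9a of the dendritic cell list was at 0 in all 16 libraries. In bulk samples like these, fewer cells of a type and less RNA per cell cannot be told apart.

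The upstream sequences of 3 genes on which the comparisons turn are shown first: Atp5b, the catalytic beta subunit of ATP synthase, Sdha, the flavoprotein subunit of complex II, both of which were lower in heart than in MLN CCR8+ Tregs, and Atp5md, a small membrane subunit of ATP synthase, which was higher in heart. Each runs 5′ to 3′ on the strand of the gene from 240 bases before the start to 10 bases from it, from RefSeq (GRCm38.p6). Capitals mark matches, on either strand, to the NRF1 motif (GCGCN followed directly by TGCGC) or to the ETS motif CCGGAAG, which GABP binds. NRF1 and GABP are transcription factors known for driving nuclear respiratory genes.
Atp5b, chr10:128083067-128083316, plus strand: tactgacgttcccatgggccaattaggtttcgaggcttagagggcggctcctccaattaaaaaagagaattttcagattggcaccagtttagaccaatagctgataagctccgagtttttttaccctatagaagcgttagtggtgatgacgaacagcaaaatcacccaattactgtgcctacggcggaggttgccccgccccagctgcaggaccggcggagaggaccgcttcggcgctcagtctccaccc
Sdha, chr13:74350231-74350480, minus strand: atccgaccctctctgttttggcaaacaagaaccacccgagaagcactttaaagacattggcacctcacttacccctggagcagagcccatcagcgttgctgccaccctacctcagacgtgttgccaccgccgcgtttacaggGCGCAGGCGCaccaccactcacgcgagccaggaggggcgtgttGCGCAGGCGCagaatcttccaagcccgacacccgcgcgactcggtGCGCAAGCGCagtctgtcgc
Atp5md, chr19:47090638-47090887, minus strand: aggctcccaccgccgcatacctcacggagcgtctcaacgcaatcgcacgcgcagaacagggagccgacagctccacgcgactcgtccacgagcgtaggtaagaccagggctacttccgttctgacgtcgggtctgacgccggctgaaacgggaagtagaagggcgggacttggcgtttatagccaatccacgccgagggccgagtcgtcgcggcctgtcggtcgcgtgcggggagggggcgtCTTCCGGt
The Sdha sequence holds 3 NRF1 matches, which begin 98, 55 and 10 bases before the start, the Atp5md sequence holds 1 ETS match at the start, and the Atp5b sequence holds neither motif in these letters. Over the longer RefSeq window that these were taken from, NRF1 matches were present in 17 of the 69 respiratory genes with a sequence (24.6%), in 12.5% of the 8338 tested genes with one and in 5.19% of all 27025 promoters. ETS matches were present in 24.6% of the respiratory genes, 22.5% of tested genes and 9.93% of all promoters. The YY1 motif AAGATGGC was present in 14.5%, 5.85% and 3.19%, and the E-box CACGTG, bound by Myc and Max, in 8.70%, 12% and 8.09%. None of these motifs contains another, and a match is a description of the letters only.

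The respiratory genes were among the most abundant in these cells. The median level of the 84 tested genes was 8.45, against 3.01 over all genes tested, and 96.5% of the genes tested lay below that median. All but 6 of the 86 genes were above 0 in all 16 libraries, and these 6 are the tissue forms of complex IV subunits described below. ATP synthase and complex IV had the highest medians, at 9.34 and 9.12, followed by supernumerary complex I (8.20), complex III and cytochrome c (7.73), complex II (7.35) and core complex I (7.34).

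**Figure D1:**
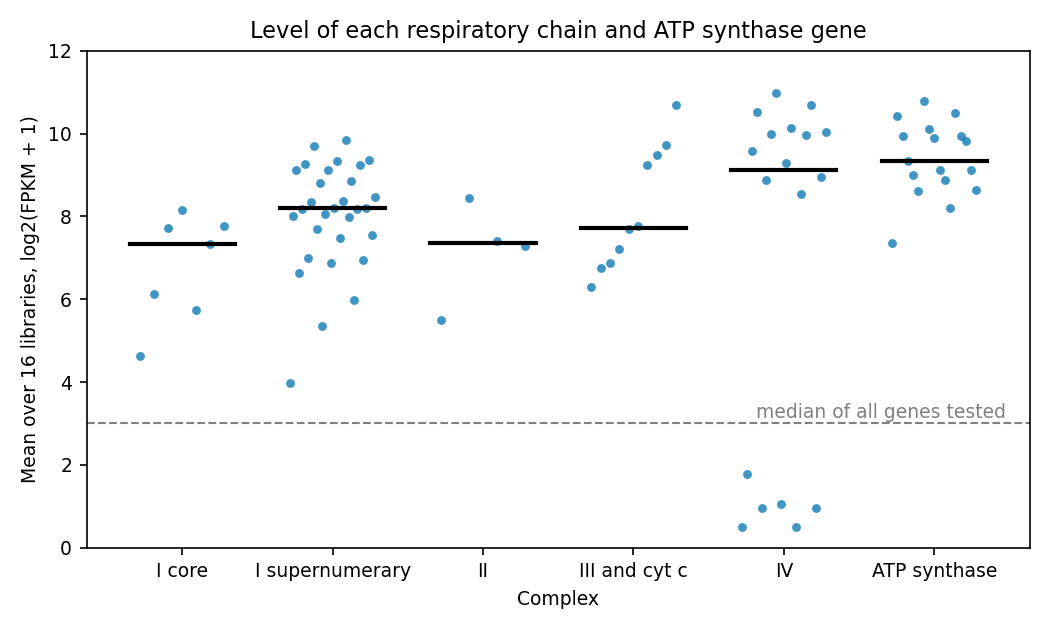
Each point is the mean level of one gene over 16 libraries in log2(FPKM + 1), by complex, and each bar is the median of a complex. The dashed line is the median of all genes tested (3.01); 6 genes of complex IV, the tissue forms, lie below it, and every other gene lies above.

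Cox6b1, the intermembrane space subunit of complex IV, had the highest mean level (10.99), ahead of Atp5md (10.78) and of Uqcrh, the hinge protein of complex III (10.69). The lowest among the genes seen in all libraries were Ndufb4b (3.99), Ndufs1, the largest core subunit of complex I (4.63), Ndufb4c (5.35) and Sdha (5.50). Across the 83 tested members with a known transcript length, level and length had a Spearman correlation of -0.46, and over tested genes of -0.36. The respiratory transcripts are short: their median length is 838 bases, against 2924 over tested genes, and 60.0% are under 1000 bases, against 6.36%. Their levels also varied less, with a median within-group SD of 0.25, against 0.74 over all genes tested. These SDs were not matched for level, whose medians were 8.45 and 3.01, and the part of level was not tested.

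In MLN, the comparison of CCR8+ with CCR8- Tregs asks how nodal Tregs that carry this tissue-associated receptor differ from those that do not. Atp5b and Atp5a1, the beta and alpha subunits of the ATP synthase head, were 2.22-fold and 2.13-fold higher in CCR8+ cells, although the groups overlap for Atp5a1. Of the 17 ATP synthase genes, 3 were higher and none lower, with a median difference of -0.02 and 8 of 17 positive. Atp5g1, one of the genes for the proton-carrying c ring, was 1.69-fold and Cyc1, the cytochrome c1 subunit of complex III, 3.23-fold higher, while the small complex IV subunits Cox8a and Ndufa4 were 1.38-fold and 1.36-fold lower. A fold is a ratio of FPKM + 1. In all, 4 of 84 genes were higher, where 2.04% of all genes tested were, and 2 were lower, where 2.09% were. With median-of-ratios scaling, 6 were higher and none lower, so the lower calls of Cox8a and Ndufa4 depend on the scaling. Of all 84 differences 35 were positive, with a median of -0.03, against 47.7% and a median of -0.04 over all genes tested, and with median-of-ratios scaling 53 were positive, with a median of 0.09.

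Markers of B cells and dendritic cells moved with this comparison. The B cell mean was 1.44, 3.35, 1.22 and 0.46 in MLN CCR8- and 4.17, 4.71, 3.04 and 2.23 in MLN CCR8+, and the dendritic cell mean 0.92, 4.48, 1.45 and 1.15 against 4.83, 4.49, 4.26 and 3.26. Per library 1 to 3 of the 5 B cell markers were at 0 in CCR8- and 0 to 2 in CCR8+, and 2 to 4 against 1 to 2 of the 7 dendritic cell markers. MLN CCR8- replicate 2 lies within the CCR8+ range for both lists. The part of these cells in the calls was not tested.

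Atp5b was 8.50, 8.52, 8.21 and 8.16 in the MLN CCR8- libraries and 9.94, 9.07, 8.94 and 10.05 in MLN CCR8+. The groups do not overlap, and replicates 1 and 4 of the CCR8+ group are the highest. MLN CCR8- replicate 2 had B cell and dendritic cell markers as high as in CCR8+ libraries, and Atp5b was 8.52 there, the highest value of its group. MLN CCR8+ replicate 4 had the lowest means of both lists in its group and the highest Atp5b value. MLN CCR8+ replicate 1 had the highest dendritic cell mean of the group (4.83), a B cell mean of 4.17 and an Atp5b value of 9.94. Replicate 2 had the highest B cell mean (4.71) and an Atp5b value of 9.07. These are single libraries, and the part of such cells in the Atp5b difference was not tested. Atp5b lies at chr10:128083273-128090391, and its difference was 1.15 (SE 0.22), a 2.22-fold higher value (limma, adjusted p = 0.00529). It was called in 26 of 27 other settings and lost only without the variance trend (adjusted p = 0.0555).

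Atp5a1 was 7.65, 7.11, 6.87 and 6.78 in MLN CCR8- and 8.44, 8.10, 7.26 and 8.97 in MLN CCR8+. The groups overlap, since CCR8+ replicate 3 lies below CCR8- replicate 1. The difference was 1.09 (SE 0.30; limma, adjusted p = 0.0449). The call was lost without any 1 of 12 libraries, namely heart CCR8- replicates 1, 2 and 4, heart CCR8+ replicates 1, 3 and 4, MLN CCR8- replicates 2, 3 and 4 and MLN CCR8+ replicates 1, 2 and 4, with limma adjusted p up to 0.158, and under 4 of 11 other settings. Atp5a1 partly overlaps Haus1 on the opposite strand, and no source used here says whether counting used strand.

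Atp5g1 was 8.61, 8.56, 9.24 and 8.93 in MLN CCR8- and 9.71, 9.58, 9.69 and 9.37 in MLN CCR8+. All CCR8+ libraries lie above all CCR8- libraries, and the difference was 0.75 (SE 0.18; limma, adjusted p = 0.0199). Without MLN CCR8- replicate 1, MLN CCR8- replicate 2 or MLN CCR8+ replicate 1 it was not called, with limma adjusted p up to 0.066. The other genes for the same c subunit, Atp5g2 and Atp5g3, differed by 0.30 (SE 0.15; limma, adjusted p = 0.31) and -0.02 (SE 0.20; limma, adjusted p = 0.979).

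Cyc1 was 3.70, 6.26, 6.33 and 5.57 in MLN CCR8- and 7.64, 6.90, 6.35 and 7.74 in MLN CCR8+. The groups are separated only by 6.33 against 6.35, and CCR8- replicate 1 is far below the others. The difference was 1.69 (SE 0.47; limma, adjusted p = 0.0458). Without any 1 of 13 libraries, which are all 8 heart libraries, MLN CCR8- replicates 1 and 4 and MLN CCR8+ replicates 1, 2 and 4, Cyc1 was not called, with limma adjusted p up to 0.139. It was lost under 8 of 11 other settings, and its difference ranged from 1.10 to 1.98.

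Cox8a, a small subunit in the membrane part of complex IV, was 10.78, 10.84, 10.94 and 11.22 in MLN CCR8- and 10.56, 10.46, 10.61 and 10.29 in MLN CCR8+. Ndufa4, first assigned to complex I and now counted with complex IV, was 10.24, 10.41, 10.18 and 10.39 in CCR8- and 9.74, 9.91, 9.82 and 9.98 in CCR8+. In both genes every CCR8+ library lies below every CCR8- library, by a small margin. Cox8a differed by -0.47 (SE 0.12; limma, adjusted p = 0.0318) and Ndufa4 by -0.44 (SE 0.12; limma, adjusted p = 0.0444). Cox8a was not called without MLN CCR8- replicate 3 or 4 or MLN CCR8+ replicate 1, 2 or 4 (limma adjusted p up to 0.112). Ndufa4 was not called without any 1 of 13 libraries, which are heart CCR8- replicates 2 and 4, every heart CCR8+ library, MLN CCR8- replicates 1, 2 and 4 and every MLN CCR8+ library (limma adjusted p up to 0.131).

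Sdha, whose promoter is printed above, was 5.27, 5.28, 5.32 and 4.61 in MLN CCR8- and 6.46, 6.11, 5.70 and 6.95 in MLN CCR8+. The groups do not overlap, and the difference of 1.18 (SE 0.34) narrowly missed the threshold (limma, adjusted p = 0.0564). The other 3 subunits of complex II, Sdhb, Sdhc and Sdhd, had differences of -0.24 (SE 0.21), -0.16 (SE 0.27) and 0.08 (SE 0.25), with none called. All 7 core subunits of complex I had positive differences, with a median of 0.39, and none of them was called. Of the 7, 3 had an unadjusted p under 0.05 (limma), where 17.7% of all genes tested did. Among them, Ndufv1, the NADH-binding subunit, differed by 0.88 (SE 0.31; limma, adjusted p = 0.122). The 30 supernumerary subunits had a median of -0.03, with 10 positive.

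**Figure D2:**
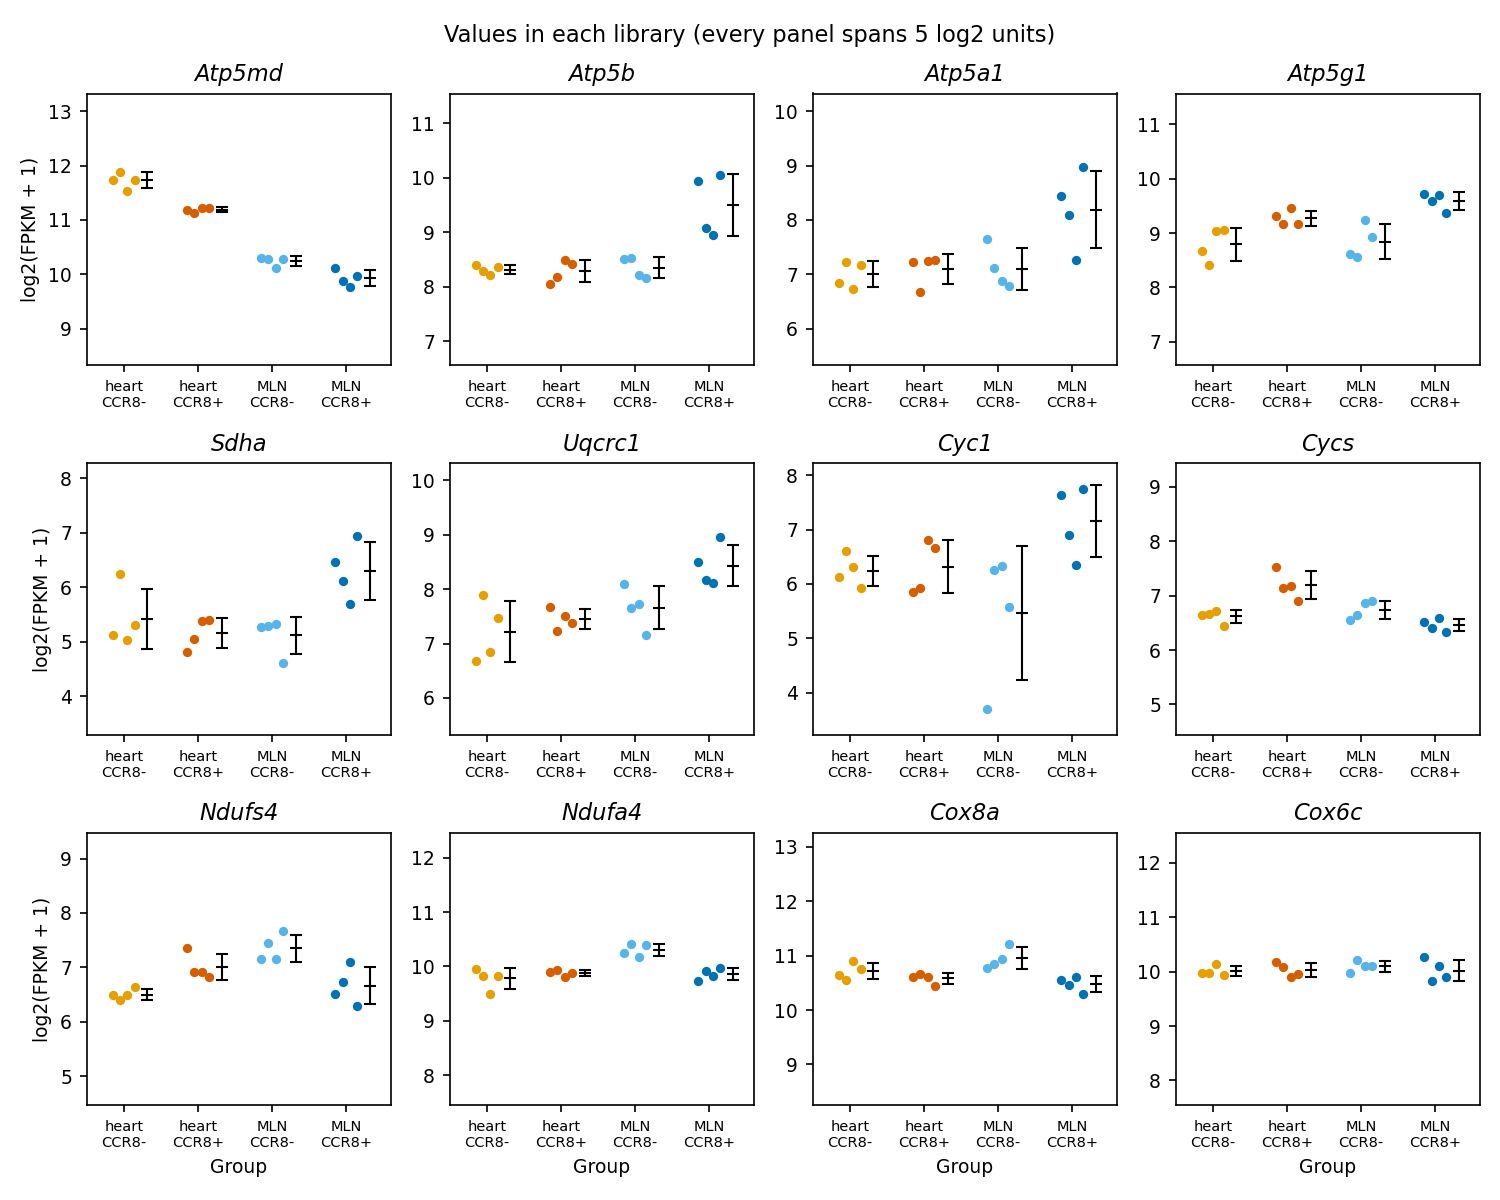
Each point is 1 library, in log2(FPKM + 1), for the 11 called genes and for Cox6c as a gene that did not differ by more than 0.10 between any 2 groups compared. Bars are the mean and SD over 4 libraries; Atp5b, Atp5a1, Sdha and Uqcrc1 have their highest mean in the MLN CCR8+ group, and Atp5md is higher in all 8 heart libraries than in all 8 MLN libraries.

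The heart and MLN CCR8+ groups were compared to see how CCR8+ Tregs differ between the injured tissue and its draining node. Lower in heart were subunits of 3 complexes: Atp5b, Atp5a1, Sdha and Uqcrc1, a core protein of complex III, were 2.32-fold, 2.13-fold, 2.21-fold and 1.98-fold lower. Atp5md and Cycs, the soluble electron carrier cytochrome c, were higher in heart. In all, 2 of 84 genes were higher, where 5.82% of all genes tested were, and 4 were lower, where 3.97% were. The lower calls are thus near the share of all genes tested. Both comparisons of MLN CCR8+ use the same 4 MLN CCR8+ libraries, so the values that made Atp5b and Atp5a1 higher there enter here as well.

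Atp5b was 8.05, 8.18, 8.49 and 8.42 in heart CCR8+, all below the lowest MLN CCR8+ library (8.94), and differed by -1.21 (SE 0.22; limma, adjusted p = 0.00135). It kept this call in all 27 other settings, with a difference between -1.40 and -1.03. In heart CCR8- it was 8.40, 8.28, 8.21 and 8.36. The group mean of Atp5b was thus 9.50 ± 0.57 (SD, n = 4) in MLN CCR8+, against 8.35 for MLN CCR8- and 8.29 and 8.31 for the CCR8+ and CCR8- cells of the heart.

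Sdha was 4.81, 5.05, 5.38 and 5.39 in heart CCR8+, and its difference from MLN CCR8+ was -1.15 (SE 0.34; limma, adjusted p = 0.0384). Uqcrc1 was 7.67, 7.23, 7.50 and 7.38 in heart CCR8+ and 8.50, 8.17, 8.11 and 8.95 in MLN CCR8+, a difference of -0.99 (SE 0.27; limma, adjusted p = 0.0251). Atp5a1 was 7.22, 6.68, 7.25 and 7.26 in heart CCR8+, just below the lowest MLN CCR8+ value of 7.26, and differed by -1.09 (SE 0.30; limma, adjusted p = 0.0243). None of these 3 genes overlaps between the groups. Sdha was not called without any 1 of 7 libraries (every heart CCR8+ library and MLN CCR8+ replicates 1, 2 and 4; limma adjusted p up to 0.135). Uqcrc1 was not called without heart CCR8+ replicate 2 or 4 or MLN CCR8+ replicate 1 or 4 (limma adjusted p up to 0.0954), nor Atp5a1 without MLN CCR8+ replicate 1 or 4 or heart CCR8+ replicate 2 (limma adjusted p up to 0.0974). Sdha, Uqcrc1 and Atp5a1 were also not called with no filter on low values, nor with no variance trend. With a covariate for markers of fibroblasts, macrophages, endothelial cells and cardiomyocytes, none of these 3 was called, while Atp5b and Atp5md were. The differences were then -1.04 (SE 0.49; limma, adjusted p = 0.306) for Sdha, -0.64 (SE 0.37; limma, adjusted p = 0.421) for Uqcrc1 and -0.84 (SE 0.42; limma, adjusted p = 0.336) for Atp5a1, with larger errors than without it. B cell and dendritic cell markers, which are not in this covariate, had higher group means in MLN CCR8+ (3.54 and 4.21) than in heart CCR8+ (1.06 and 3.55), and their part was not tested.

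Cycs was 7.53, 7.14, 7.17 and 6.91 in heart CCR8+ and 6.51, 6.41, 6.59 and 6.34 in MLN CCR8+. All heart libraries are higher, and the difference was 0.72 (SE 0.21; limma, adjusted p = 0.0292). It was not called without heart CCR8+ replicate 1, 2 or 3 or MLN CCR8+ replicate 1, 2 or 4, with limma adjusted p up to 0.105, nor with the covariate for other cell types, where the difference was 0.92 (SE 0.29; limma, adjusted p = 0.0974). All 7 core subunits of complex I had negative differences here (median -0.51), and none of them was called. Of the 7, 3 had an unadjusted p under 0.05 (limma), where 24.1% of all genes tested did. The same MLN CCR8+ libraries enter the comparison with MLN CCR8-, so the opposite signs there and here are not independent. Ndufs7, which holds the last iron-sulfur cluster before ubiquinone, differed by -0.84 (SE 0.29; limma, adjusted p = 0.0685). The supernumerary subunits had a median of -0.03, with 15 of 30 positive, and all genes tested a median of -0.08.

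Atp5md separated the tissues most clearly. In the CCR8- cells it was 11.74, 11.89, 11.53 and 11.74 in heart and 10.31, 10.29, 10.12 and 10.29 in MLN. In the CCR8+ cells it was 11.19, 11.13, 11.22 and 11.22 in heart and 10.12, 9.88, 9.76 and 9.97 in MLN. Every heart library lies above every MLN library. The difference between heart and MLN was 1.26 (SE 0.11) in CCR8+ cells, a 2.39-fold higher value (limma, adjusted p = 7.08e-07), and 1.48 (SE 0.11) in CCR8- cells, a 2.78-fold higher value (limma, adjusted p = 1.7e-07). Both calls held in all 27 other settings. Atp5md, named Usmg5 in GENCODE vM21, lies at chr19:47083464-47090647 and overlaps Taf5 by a few bases on the opposite strand.

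Among CCR8- Tregs, the heart was compared with MLN for the same question in cells sorted as negative for the surface receptor. Their Ccr8 mRNA was not alike, at 8.20 to 8.73 in heart CCR8- and 3.85 to 5.41 in MLN CCR8-. Here Atp5md was the only gene of the 84 that was higher, where 2.95% of all genes tested were, and Ndufa4 and Ndufs4 were lower, where 1.61% were. Ndufa4 was 9.96, 9.83, 9.50 and 9.82 in heart CCR8-, below all MLN CCR8- libraries, and differed by -0.53 (SE 0.12; limma, adjusted p = 0.0163). Ndufs4, a supernumerary subunit beside the electron input part of complex I, was 6.49, 6.39, 6.50 and 6.63 in heart CCR8- and 7.15, 7.44, 7.15 and 7.66 in MLN CCR8-. These groups do not overlap, and the difference was -0.85 (SE 0.22; limma, adjusted p = 0.0373). With median-of-ratios scaling neither was called. With the covariate for other cell types the differences were -0.32 (SE 0.20; limma, adjusted p = 0.7) for Ndufa4 and -0.64 (SE 0.38; limma, adjusted p = 0.69) for Ndufs4, and neither was called. Ndufa4 was not called without MLN CCR8- replicate 4 (limma adjusted p = 0.0519). Ndufs4 was not called without any 1 of 7 libraries (every heart CCR8- library and MLN CCR8- replicates 2, 3 and 4; limma adjusted p up to 0.11).

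Most respiratory genes leaned lower in heart CCR8- Tregs: 19 of 84 differences were positive, with a median of -0.23. Over all genes tested 45.1% were positive, with a median of -0.10. With median-of-ratios scaling the count was 29 and the median -0.12. Complex II had the lowest median (-0.43), then supernumerary complex I (-0.27) and ATP synthase (-0.25). Among other tested genes with transcripts under 1000 bases, 32.5% were positive and the median was -0.22, against 22.4% and -0.23 for respiratory genes of this length. Of 1000 bases or more, 46.4% of other genes were positive with a median of -0.07, against 23.5% and -0.23 for the respiratory genes.

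In heart, CCR8+ against CCR8- Tregs showed small differences. Atp5md was the only gene called: it was lower in CCR8+ by 0.53 on the log2 scale (difference -0.53, SE 0.11; limma, adjusted p = 0.0315), where 0.0964% of all genes tested were lower. The values of the groups do not overlap. None was higher, where 0.27% of all genes tested were. An unadjusted p under 0.05 was found for 15 of 84, a larger share than the 11.1% of all genes tested. The Atp5md call was lost without heart CCR8- replicate 1, 2 or 4 or heart CCR8+ replicate 1, 2 or 3 (limma adjusted p up to 0.111), and with heart CCR8- replicate 3 and heart CCR8+ replicate 1 both left out. In MLN, Atp5md differed between CCR8+ and CCR8- by -0.32 (SE 0.11; limma, adjusted p = 0.103).

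The other genes leaned the opposite way. Of 84 differences 64 were positive, with a median of 0.17, against 5186 of 10369 and a median of 0.00 over all genes tested. The largest among subunits expressed in all libraries were Uqcrc2, the second core protein of complex III, at 0.74 (SE 0.25; limma, adjusted p = 0.255), and Ndufv2, a core subunit of complex I, at 0.73 (SE 0.21; limma, adjusted p = 0.172). The values of Ndufv2 and Uqcrc2 do not overlap between the heart groups. Other tested genes under 1000 bases had a median of 0.14, with 63.9% positive, and those of 1000 bases or more had a median of -0.02. The respiratory genes had a median of 0.17 below and above 1000 bases alike. The part of transcript length in these medians was not tested, and the limit of 1000 bases was chosen after the data were seen. The lower lean of heart CCR8- against MLN CCR8- uses the same heart CCR8- libraries, so low values in them enter both comparisons. The leans are therefore not independent of each other.

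**Figure D3:**
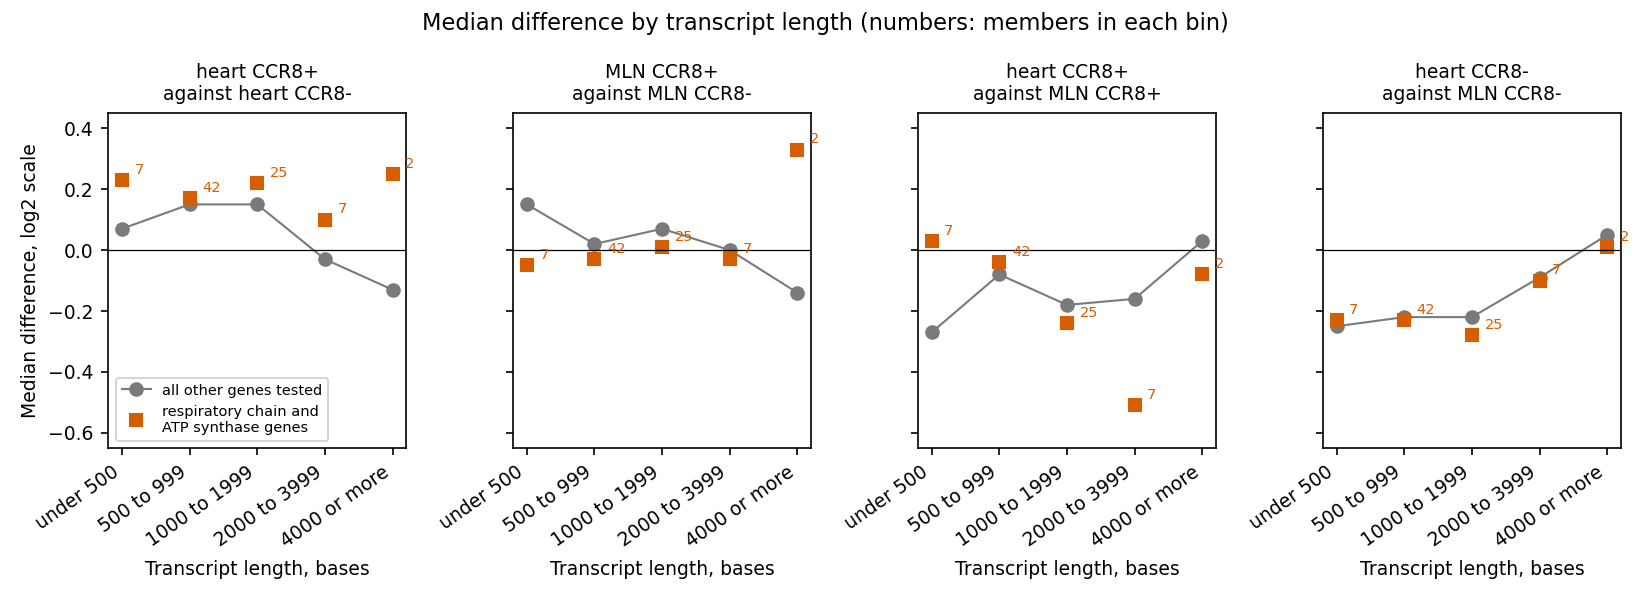
Median difference on the log2 scale by transcript length in bases, for the respiratory genes (squares, with the number of genes) and all other tested genes (circles). In heart CCR8- against MLN CCR8- the other genes run from -0.25 in the shortest bin to 0.05 in the longest, while respiratory genes are at -0.23 both below and above 1000 bases; bins with fewer than 20 respiratory genes are descriptions of few genes.

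**Figure D4:**
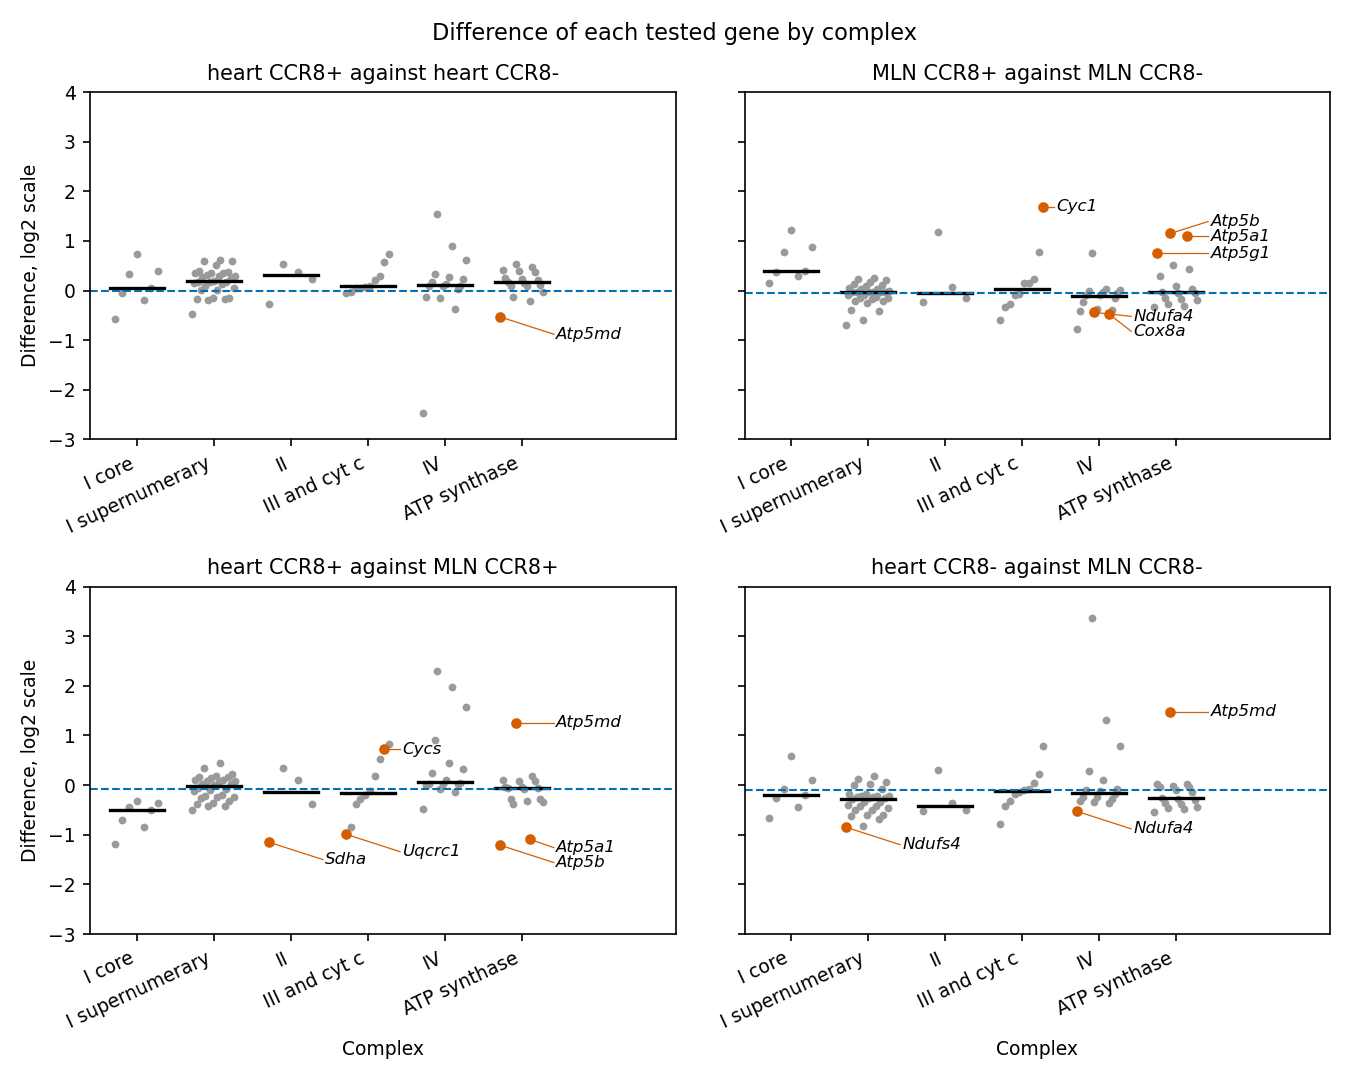
Each point is the difference of 1 tested gene on the log2 scale, by complex, in the 4 comparisons; orange points with names were called by limma. Bars are medians of a complex and dashed lines the median of all genes tested. Core complex I lies above the line in MLN CCR8+ against MLN CCR8- and below it in heart CCR8+ against MLN CCR8+. Both comparisons use the same MLN CCR8+ libraries.

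Of the 84 genes tested, 11 were called in at least 1 comparison of 2 groups and 73 in none. Of these 73, 69 were above 0 in every library, and 45 of the 69 differed by less than 0.5 in all 4 comparisons of 2 groups. Cox4i1 and Cox6c, common subunits around the mitochondrially encoded core of complex IV, are examples. The counts of 11, 73 and 45 are given without the matching shares of all genes tested, so they do not set the respiratory genes apart. The largest of the 4 differences was -0.10 (SE 0.12; limma, adjusted p = 0.739) for Cox6c and -0.31 (SE 0.14; limma, adjusted p = 0.224) for Cox4i1, both in heart CCR8- against MLN CCR8-. Uqcrfs1, the Rieske iron-sulfur subunit of complex III, had a difference of 0.82 between heart and MLN CCR8+ (SE 0.26; limma, adjusted p = 0.0538), against -0.99 for Uqcrc1 of the same complex. Ndufb11, a membrane subunit of complex I, had one of -0.59 between MLN CCR8+ and MLN CCR8- (SE 0.17; limma, adjusted p = 0.0509).

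The interaction asks whether the CCR8 difference in heart equals that in MLN. None of the 84 genes was called by limma, where 0.405% of all genes tested were. An unadjusted p under 0.05 was found for 15, a larger share than the 12.3% of all genes tested. Atp5b came closest, at -1.18 (SE 0.31; limma, adjusted p = 0.114), with Ndufs4 at 1.20 (SE 0.32; limma, adjusted p = 0.114). Without MLN CCR8+ replicate 3, Atp5b was called (-1.36; limma, adjusted p = 0.0394). So the gain of Atp5b with CCR8 in MLN (1.15) against -0.03 (SE 0.22) in heart is not shown to differ between the tissues.

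Where complex IV has a common and a tissue form of a subunit, the common form was by far the more abundant transcript. Cox4i1, Cox6a1, Cox6b1, Cox7a2, Cox8a and Ndufa4 had mean levels of 8.89 to 10.99 over the 16 libraries. Their counterparts Cox4i2, Cox6a2, Cox6b2, Cox7a1, Cox8b and Ndufa4l2 had means of 0.50 to 1.78 and were at 0 in 7 to 14 of the libraries. Cox6a2, Cox7a1 and Cox8b are known as the heart and skeletal muscle forms, and Ndufa4l2 as a gene induced by hypoxia through HIF1.

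Ndufa4l2 was listed at 0 in all 8 MLN libraries, and in heart it was 2.85, 0, 5.85 and 4.74 in CCR8- and 0, 0, 0 and 3.58 in CCR8+ libraries. Heart CCR8- has 3 of the 4 values above 0, and the groups overlap at 0. The heart CCR8- against MLN CCR8- difference was 3.36 (SE 0.96; limma, adjusted p = 0.0508). Its size depends on the added 1, and without heart CCR8- replicate 2 it was called (4.48; limma, adjusted p = 0.00381). Cox7a1 was 2.30, 0, 3.49 and 3.72 in heart CCR8- and 0.83, 3.45, 0 and 0 in MLN CCR8- libraries. In the CCR8+ cells it was 0, 3.38, 4.19 and 4.41 in heart and 0, 2.77, 0 and 0 in MLN. The heart libraries are mostly higher, yet no comparison was called (for heart against MLN CCR8+, 2.30, SE 1.05; limma, adjusted p = 0.182), except without heart CCR8+ replicate 1, where the difference was 3.30 (limma, adjusted p = 0.0459).

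Of 12 cardiomyocyte markers, the mean level was 0.11 to 0.68 in the MLN libraries, 0.55 to 2.42 in heart CCR8+ and 0.53 to 2.13 in heart CCR8- libraries. Myh6, a defining myosin of cardiomyocytes, was at 0 in all heart libraries. Myl2 was above 0 in 7 of 8 heart libraries and at most 0.43 in MLN. Not all markers followed the tissue. Ttn was 0.30 to 1.63 in heart and 0.78 to 1.64 in MLN libraries. Actn2 was 3.85, 1.44, 0.02 and 3.38 in heart CCR8- and 3.36, 1.54, 3.67 and 4.43 in MLN CCR8-. In CCR8+ cells Actn2 was 0.64 to 4.99 in heart and at most 0.25 in MLN. Tnni3 was 2.91 in MLN CCR8- replicate 3. In heart, between 2 and 8 of the 12 markers were at 0 per library, and in MLN between 7 and 10. The highest heart values of Cox8b came from heart CCR8- replicate 3 (4.34) and heart CCR8+ replicate 3 (3.71), which held Tnni3 at 3.53 and 2.41 and Mb at 3.51 and 3.50. Cox8b was at 0, however, in heart CCR8- replicate 4, with the highest Tnni3 (4.32) and Myl2 (5.49), and in heart CCR8+ replicate 4, with the highest Mb (3.87) and Myl3 (4.31). The part of RNA from heart muscle or vessel cells in the tissue forms was not tested.

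**Figure D5:**
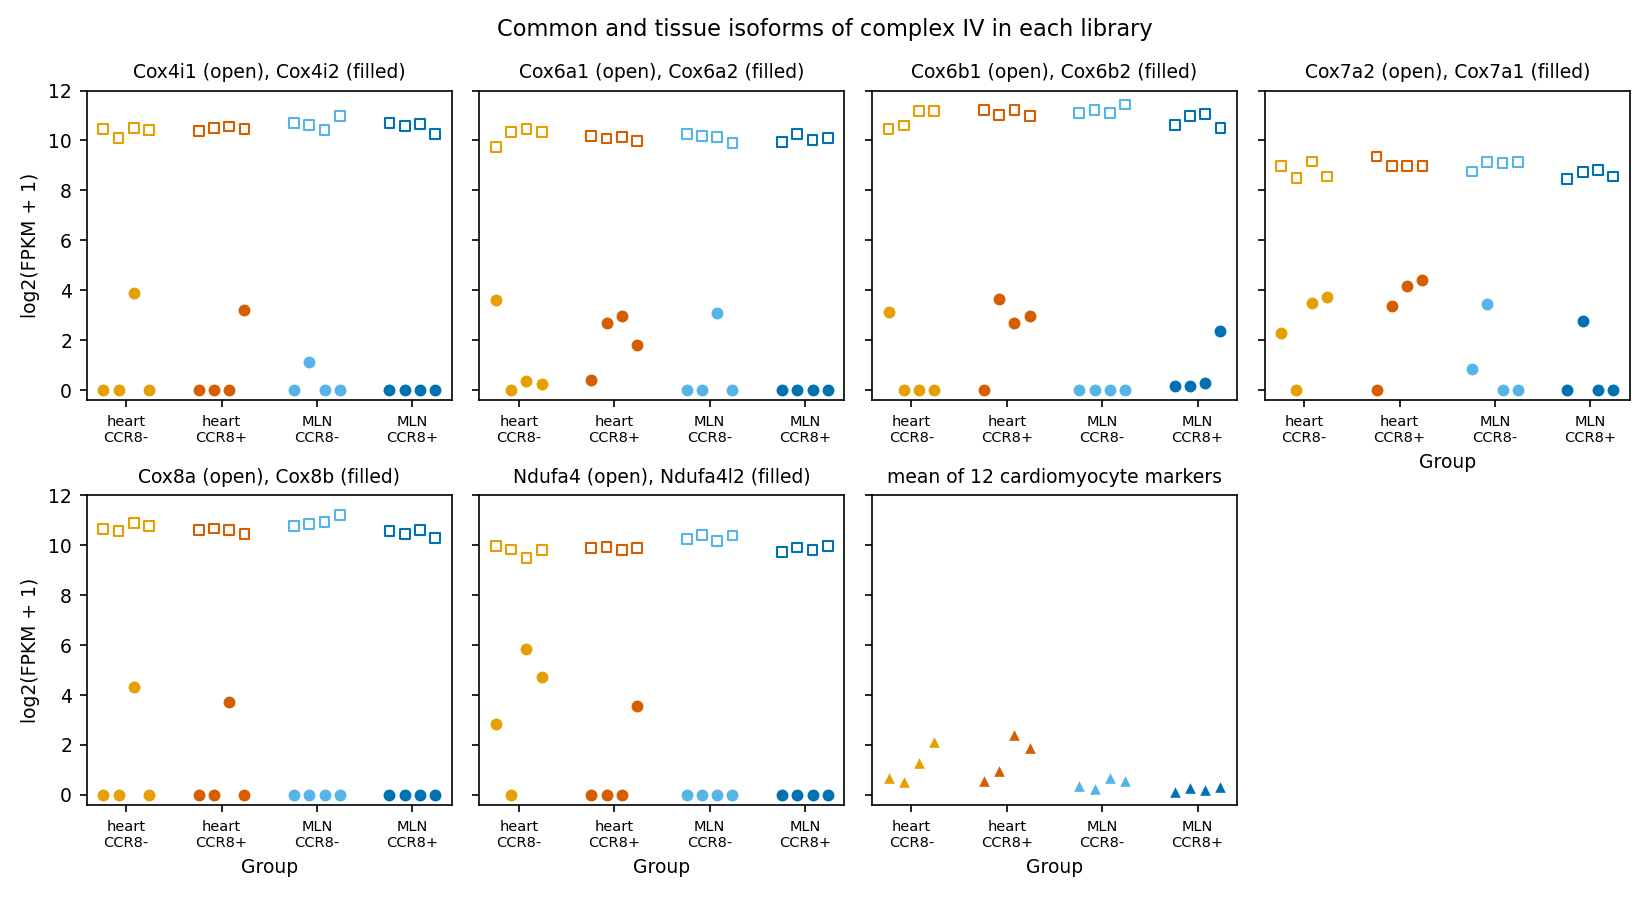
Level of common (open squares) and tissue (filled circles) forms of 6 complex IV subunits in each library, in log2(FPKM + 1), with the mean of 12 cardiomyocyte markers (triangles). Common forms lie between 8 and 12 in all libraries, and tissue forms are at 0 in many and highest mostly in heart.

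Genes around the chain were read from lists of assembly factors, the TCA cycle, regulators of mitochondrial biogenesis, and import and carrier proteins. In MLN CCR8+ against MLN CCR8-, 3 of 27 import and carrier genes were higher and none lower, and 1 of 49 assembly factors was higher, where 2.04% of all genes tested were higher and 2.09% lower. None of 18 TCA cycle genes was called in any comparison, with 3 to 7 of 18 at an unadjusted p under 0.05, against 11.1% to 24.1% of all genes tested. Phb and Phb2, the prohibitins that form a scaffold in the inner membrane, were higher in MLN CCR8+. Phb was 5.75, 5.31, 5.85 and 6.25 in MLN CCR8- and 6.84, 7.23, 7.28 and 7.38 in MLN CCR8+, a difference of 1.39 (SE 0.28; limma, adjusted p = 0.00669). Phb2 was 6.20, 5.88, 5.61 and 3.95 against 7.30, 6.90, 7.33 and 7.89, a difference of 1.95 (SE 0.40; limma, adjusted p = 0.00846). Neither gene overlaps between the groups, and both were called in all 27 other settings. Phb and Phb2 were 5.31 and 5.88 in MLN CCR8- replicate 2, whose B cell and dendritic cell markers are as high as in CCR8+ libraries. The part of such cells in both differences was not tested.

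Hspe1, the partner of the matrix chaperonin, differed there by 0.98 (SE 0.24; limma, adjusted p = 0.0263) and Sdhaf1, an assembly factor for the iron-sulfur subunit of complex II, by 0.96 (SE 0.22; limma, adjusted p = 0.0168). Hspe1 was not called without MLN CCR8- replicate 1 or 2 or MLN CCR8+ replicate 3 or 4 (limma adjusted p up to 0.0891), nor Sdhaf1 without replicate 1 of either MLN group (limma adjusted p up to 0.07). Gabpb1, a subunit of GABP, was the only called biogenesis regulator. Its CCR8- values were 7.32, 7.44, 6.69 and 7.56 in heart and 5.42, 5.34, 4.59 and 3.43 in MLN, and its CCR8+ values 6.42, 7.21, 6.39 and 7.13 in heart and 4.25, 5.23, 5.32 and 4.73 in MLN. All heart libraries lie above all MLN libraries, by 1.91 (SE 0.40; limma, adjusted p = 0.00441) in CCR8+ and 2.55 (SE 0.40; limma, adjusted p = 0.000856) in CCR8- cells. With the covariate for other cell types neither was called, although the differences hardly moved: 1.87 (SE 0.57; limma, adjusted p = 0.09) and 2.51 (SE 0.69; limma, adjusted p = 0.21). Slc25a3, the phosphate carrier that feeds ATP synthase, was higher in heart CCR8- than MLN CCR8- by 0.82 (SE 0.19; limma, adjusted p = 0.0167), and this was not called without MLN CCR8- replicate 3 or 4 or heart CCR8- replicate 2 (limma adjusted p up to 0.0618), nor with the covariate (0.78, SE 0.33; limma, adjusted p = 0.525).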

How the data were processed

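Per the labels, about 100 Tregs per library were sorted by magnetic beads and flow cytometry, and libraries were made with the NEBNext Ultra RNA kit with a selection of fragment sizes. Per the submitters' processing notes, HISAT2 2.0.5, featureCounts 1.5.0-p3 and mm10 (GRCm38) were used. The deposited values look like log2(FPKM + 1) that the authors had quantile normalized: in all 16 libraries the highest value was 14.899 and the top 74 ranks were identical. No source used here gives either step. With the log undone, a library summed to 1007109 to 1007347, as TPM would, so FPKM stands for either. Reads per library, and so the depth, are unknown.

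Date-like entries (24) were left out, and limma 3.58.1 under R 4.3.3 was run on 10369 of 19195 genes: 1 mean per group over all 16 libraries, with a variance trend (12 residual and 7 prior degrees of freedom) and the Benjamini-Hochberg adjustment over all genes tested. FPKM on a linear scale had been planned for, to be put on this log2 scale before testing. The script was tested on simulated data, with changed genes drawn from tested genes in general. A log2 change of 1 was called for 10.4% of them in heart CCR8+ against CCR8-. It was called for 22.4% in MLN CCR8+ against CCR8-, 17.9% in both comparisons of heart with MLN and 5.97% in the interaction. For a change of 3 the shares were 53% to 89.4%, and 1 to 19 unchanged genes were called. A gene that was not called may thus still differ. Coordinates, lengths (longest principal transcript) and overlaps are from GENCODE vM21 (GRCm38), which had 85 of the 86 members, not Ndufb4b. Near copies were searched with BLAST+ 2.17.0 (at least 95% identity over at least 50% of the transcript): 11 members had one, only Ndufb4c one in the table, which is Ndufb4, so reads of these may be shared.

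The members and lists were chosen with earlier results of these data known. Named genes are every called member, the members with the highest and lowest difference in each complex, a preset group of 16 common subunits, the complex IV forms and called genes of the pathway lists, except for a gene that is not reported here. Ndufb4b, Ndufb4c, Ndufb11, Ndufs7 and Uqcrh were named after their values were seen. Mitochondrially encoded subunits, Cox7b2 and Cox8c were not analysed here. The alternatives tried were no filter, a filter at an FPKM of 5, a pseudocount of 0.1, scaling by median-of-ratios factors or to equal sums, a replicate block, array weights, a covariate for markers of other cell types (4 lists averaged: cardiomyocyte, endothelial, fibroblast and macrophage), leaving out 2 heart libraries, no variance trend, only the 2 groups compared, and leaving out each library in turn.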

Additional observations from a re-analysis of the deposited data

Results flagged for a closer look

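A library was picked out where its gap to the nearest of the other 3 was larger, relative to the range of its group, than Dixon's critical value for groups of 4. Not every respiratory gene was screened in this way, so the values below are not a complete list. Of 216 groups of 4 values screened, 26 held such a library, and chance alone gives about 1 group in 20. Tissue forms of complex IV, which are at 0 in many libraries, gave 11 of the 26. Cox6a2 was 3.63 in heart CCR8- replicate 1 and 3.09 in MLN CCR8- replicate 3. Ndufa4l2 was 3.58 in heart CCR8+ replicate 4. Cox4i2 was 3.88 in heart CCR8- replicate 3, 3.23 in heart CCR8+ replicate 4 and 1.12 in MLN CCR8- replicate 2. Cox8b was 4.34 in heart CCR8- replicate 3 and 3.71 in heart CCR8+ replicate 3. Cox7a1 was 2.77 in MLN CCR8+ replicate 2. Cox6b2 was 3.14 in heart CCR8- replicate 1 and 2.39 in MLN CCR8+ replicate 4. The other 3 libraries of these groups were at 0, except for values of up to 0.38 for Cox6a2 in heart CCR8- and of 0.15 to 0.28 for Cox6b2 in MLN CCR8+.

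Among subunits above 0 in every library, the values below are each given against the range of the other 3 libraries of the group. Ndufa6 was 8.84 in heart CCR8+ replicate 2 against 9.07 to 9.11. Cox5a was 9.34 in heart CCR8+ replicate 1 against 8.91 to 8.98, and 8.53 in MLN CCR8+ replicate 4 against 9.10 to 9.21. Ndufa10 was 5.65 in heart CCR8+ replicate 3 against 6.62 to 6.71. Atp5a1 was 6.68 in heart CCR8+ replicate 2 against 7.22 to 7.26. Ndufv1 was 5.28 in heart CCR8- replicate 3 against 6.05 to 6.10. Sdhd was 7.04 in MLN CCR8- replicate 4 against 7.73 to 7.85. Ndufs4 was 7.36 in heart CCR8+ replicate 1 against 6.83 to 6.92. Uqcrc2 was 6.63 in heart CCR8- replicate 4 against 6.08 to 6.16. Ndufs8 was 7.28 in heart CCR8- replicate 2 against 8.19 to 8.24, and 7.58 in heart CCR8+ replicate 2 against 8.16 to 8.20. Sdha was 4.61 in MLN CCR8- replicate 4 against 5.27 to 5.32. Atp5md was 10.12 in MLN CCR8- replicate 3 against 10.29 to 10.31. Cox7a2 was 9.36 in heart CCR8+ replicate 1 against 8.97 to 8.99, and 8.76 in MLN CCR8- replicate 1 against 9.11 to 9.15.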

How the results depend on the processing

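The number of respiratory genes called depends on the processing. In heart CCR8+ against CCR8- it was 1, and 0 with no filter, no variance trend, only the 2 groups compared, or heart CCR8- replicate 3 and heart CCR8+ replicate 1 both left out, and 0 to 2 with single libraries left out. In MLN CCR8+ against CCR8- it was 6, but 2 with only the 2 groups compared, 0 with no variance trend, and 1 to 9 with single libraries left out. In heart against MLN CCR8+ it was 6, but 11 with array weights, 10 with only the 2 groups compared, 2 with the covariate for markers of other cell types, 2 with no variance trend, and 2 to 8 with single libraries left out. In heart against MLN CCR8- it was 3, but 1 with median-of-ratios factors, the covariate, 2 heart libraries left out, no variance trend or only the 2 groups compared, and 2 to 4 with single libraries left out. The interaction had 0, and 0 to 1 with single libraries left out, the 1 being Atp5b. For the named genes over all comparisons and settings, 6447 values kept their direction and side of the threshold, 147 lost and 37 gained a call, and 169 that were not called either way turned their direction, which no called value did. The causes were not tested.

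Between libraries of equal replicate number, deviations from the group means correlated by -0.0933 to 0.0589. No label says which mouse gave which library, so whether these libraries were paired is unknown. With the replicate block, 1 respiratory gene was called in heart CCR8+ against CCR8-, 5 in MLN CCR8+ against CCR8-, 5 in heart against MLN CCR8+, 3 in heart against MLN CCR8- and 0 in the interaction. Under the block Cyc1 (limma adjusted p = 0.0581), Ndufs4 (0.0635) and Sdha (0.0595) were no longer called, and Ndufa4l2 was (0.0417).

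Depth is unknown, so values near 0 cannot be given a counting error, and transcripts from about 100 cells limit what low genes such as the tissue forms of complex IV can show.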
